A study of Mus musculus with 6 samples.

Results

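Of the 11207 cells in the first run of columns of the 6 deposited tables, 71 were *Lyz2*-positive cells with no UMI (unique molecular identifier, 1 captured mRNA molecule) of the 3 complement C1q chain genes and little MHC class II mRNA. The rule asked for at least 1 UMI of *Lyz2*, at least 1 UMI of *Ccl6*, *Ccl9*, *Csf1r* or *Fcgr3*, no UMI of *C1qa*, *C1qb* or *C1qc*, fewer than 2 of *H2-Aa*, *H2-Ab1* and *H2-Eb1* detected, and no UMI of *Pdgfra*, *Cd79a* or *Cd3e*. The cells were selected on the UMIs of these 14 genes, so their values are a description only. The tibialis anterior muscle (TAM) came from male mice, 3 to 5 months old, on a mixed B6;129 background, which carried the Fucci cell cycle reporter at the Gt(ROSA)26Sor locus (allele tm1(Fucci2aR)Jkn) and were negative for *Pax7*-Cre, so the reporter allele was shared by every group. Hypothyroid mice were fed an iodine-deficient diet with propylthiouracil at 0.15% (w/w) for 3 weeks before injury and throughout, and control mice a matched diet without it. Cardiotoxin (CTX, 50 μg/ml) was injected into the right TAM, and muscles were taken uninjured (0 dpi) and at 5 and 14 days after injury (dpi). Each of the 6 groups was 1 library of cells pooled from 3 mice, captured from the whole dissociated muscle after red-cell lysis and removal of dead cells, so each diet at a given day had no replicate, no difference between diets or days was tested, and intervals cover counting error only. First-run libraries held 528 to 3294 cells and 2283740 to 23496508 UMIs.

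Classical monocytes enter an injured muscle from the blood through the receptor *Ccr2* and carry Ly6C, encoded by *Ly6c2*. In the muscle they clear debris, release cytokines and neutrophil-attracting chemokines, and mature into macrophages, which in mice take up expression of the C1q chains and, in part, of MHC class II. Cells low in both are therefore looked for among recent arrivals, although neutrophils and cells that carry free *Lyz2* mRNA can pass the same rule.

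The label of monocyte was checked with marker genes, and the shares depended on the list and on depth. Of 4 defining genes, *Ly6c2*, *Ccr2*, *Chil3* and *Ms4a4c* (picked after the values were seen, so that their counts are a description only), at least 2 were detected in 43 of the 71 cells (60.6%) and at least 1 in 56. By library, at least 2 were detected in 30 of 47 control cells at 5 dpi (63.8%, exact 95% interval 48.5 to 77.3), in 5 of 12 hypothyroid cells at 5 dpi (41.7%, 15.2 to 72.3), in 4 of 4 hypothyroid uninjured cells, in 1 of 2 control cells at 14 dpi and in 3 of 6 hypothyroid cells at 14 dpi. The same was true of 7.98% of 727 C1q-positive macrophages, 43.8% of 128 C1q-negative cells rich in MHC class II and 0.504% of 3373 *Pdgfra*-positive stromal cells. With the full list of 10 classical monocyte genes, at least 3 were detected in 37 of 47 and in 5 of 12 cells at 5 dpi, and in 55.4% and 41.5% of the deeper *Pdgfra*-positive cells of the same libraries, so the longer list did not set these cells clearly apart from stroma of greater depth. After each cell was thinned to 1000 UMIs, 22 of 47 control cells and 3 of 10 hypothyroid cells at 5 dpi kept 3 or more. Since 15 cells held none of the 4 genes, the cells are called here by the rule, C1q-negative MHC-II-low cells.

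**Figure D1:**
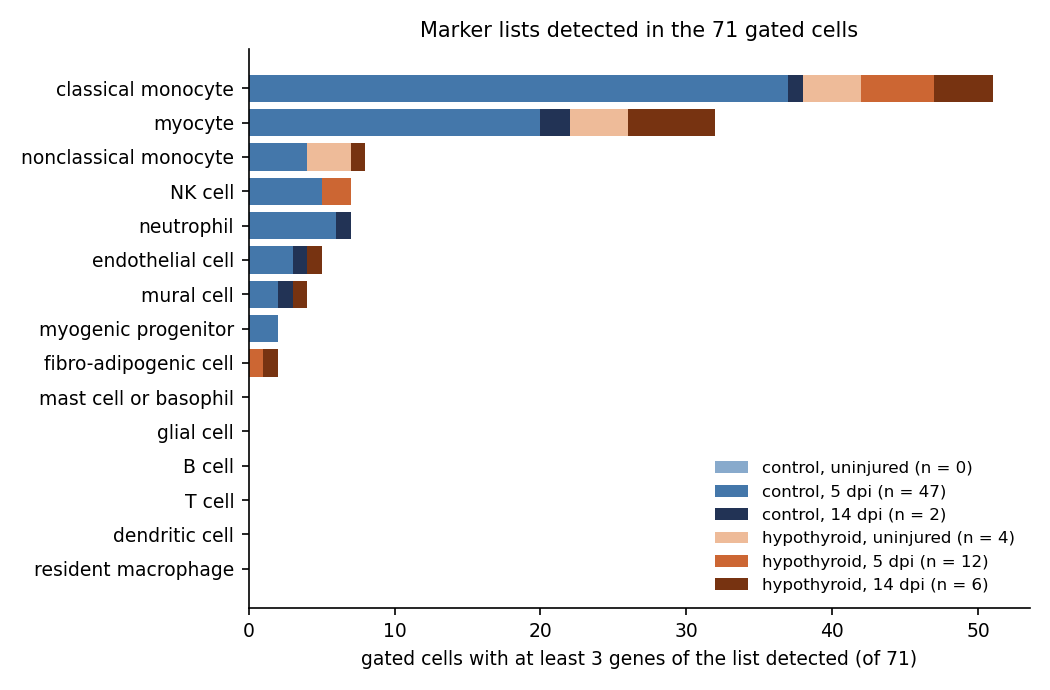
Number of the 71 C1q-negative MHC-II-low cells (x axis) in which at least 3 genes of each marker list (y axis) were detected, stacked by library. The classical monocyte list was detected in 51 cells, the myocyte list in 32, and the lists of resident macrophages, dendritic cells, T cells, B cells, glial cells and mast cells in 0.

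Other cell types were found among the 71 cells and are given with their numbers because they move with several results. At least 3 neutrophil genes were detected in 7 cells, 6 of them from control muscle at 5 dpi and 1 from control muscle at 14 dpi. Natural killer genes were detected in 7 cells (5 control and 2 hypothyroid, 5 dpi), endothelial genes in 5, mural genes in 4, fibro-adipogenic genes in 2 and myogenic progenitor genes in 2. The dendritic cell and resident macrophage lists reached 3 genes in 0 cells. Myocyte genes reached 3 in 32 cells, and in 53.2% of *Pdgfra*-positive cells of control muscle at 5 dpi and 9.21% of those of hypothyroid muscle. Leaving out neutrophil genes and every other type but myocytes kept 52 cells: 35 control and 9 hypothyroid at 5 dpi, 4 hypothyroid uninjured and 4 hypothyroid at 14 dpi. No doublets were removed. Single deep cells with genes of other types held a large share of 3 of the pools. In hypothyroid muscle at 5 dpi the deepest cell held 19213 of the pool's UMIs (34%), with 1 *Lyz2* UMI, 362 UMIs of the collagen gene *Col1a1* and 6 fibro-adipogenic genes. In control muscle at 14 dpi 1 of the 2 cells held 91.6% of the UMIs, with 7 endothelial and 5 mural genes. The deepest of the 6 hypothyroid cells at 14 dpi held 42.8%, with 7 endothelial and 7 mural genes.

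The rule's edges were narrow. Of the 71 cells, 58 had none of the 3 MHC class II genes and 13 had 1. Just outside, 5 C1q-negative cells had 2 of them and 123 had all 3, so few cells lay at that border. A further 8 MHC-II-low cells had exactly 1 C1q UMI, 4 of them in hypothyroid muscle at 5 dpi. At the other border 15 members had a single *Lyz2* UMI, 7 of the 47 control cells and 4 of the 12 hypothyroid cells at 5 dpi. *Lyz2* was detected in 9.81% of *Pdgfra*-positive cells of control muscle at 5 dpi (median 14990 UMIs) and in 25.4% of those of hypothyroid muscle (median 15815 UMIs).

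C1q-negative MHC-II-low cells were most frequent in control muscle at 5 dpi. Control muscle held 0 of 1152 cells when uninjured, which allows a share of up to 0.260%, then 47 of 2428 at 5 dpi (1.94%, exact 95% interval 1.43 to 2.57) and 2 of 3294 at 14 dpi (0.0607%, 0.00735 to 0.219). Hypothyroid muscle held 4 of 528 when uninjured (0.758%, 0.207 to 1.93), 12 of 2155 at 5 dpi (0.557%, 0.288 to 0.971) and 6 of 1650 at 14 dpi (0.364%, 0.134 to 0.790). The 3 hypothyroid intervals overlapped each other, while the control share at 5 dpi stood above every other library but the uninjured hypothyroid one, whose interval reached it. These intervals hold no spread between mice.

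At 5 dpi the hypothyroid share was 0.288 of the control share (exact 95% interval 0.139 to 0.551). Among cells that passed the myeloid conditions alone, with C1q and MHC class II set aside, the cells made up 47 of 210 in control muscle (22.4%) and 12 of 520 in hypothyroid muscle (2.31%), a ratio of 0.103 (0.0498 to 0.197). C1q-positive macrophages took the opposite order, with 88 cells in control and 458 in hypothyroid muscle at 5 dpi, and C1q-negative cells rich in MHC class II numbered 67 and 33. The rule splits the same gate by C1q and MHC class II, so these 3 counts are not independent. Cells with exactly 1 of the C1q genes, 8 of the 210 and 17 of the 520, belonged to none of the 3 populations. Free C1q mRNA also differed between the libraries: at least 1 C1q UMI was found in 4.43% of *Pdgfra*-positive cells of control muscle and in 20.2% of those of hypothyroid muscle at 5 dpi. When cells with 1 C1q UMI were kept, the ratio was 0.376 (0.199 to 0.673), and after thinning each cell to 1000 UMIs it was 0.249 (0.0738 to 0.669) over 23 and 5 cells. Without cells carrying genes of any other type, myocytes included, it was 0.461 (0.187 to 1.04), and with the later columns of each table, whose condition is unknown, 0.830 (0.544 to 1.26).

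At 14 dpi the order was turned, with a ratio of 5.99 (1.07 to 60.7) over 6 and 2 cells. Among the cells left after other types were set aside, 4 were hypothyroid and 0 control. As a share of the myeloid gate the ratio was 2.30 (0.410 to 23.3), after thinning to 1000 UMIs 1.41 (0.206 to 8.33) over 3 and 4 cells, and with at least 2 *Lyz2* UMIs 2.99 (0.343 to 35.9). These 3 intervals hold 1.

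**Figure D2:**
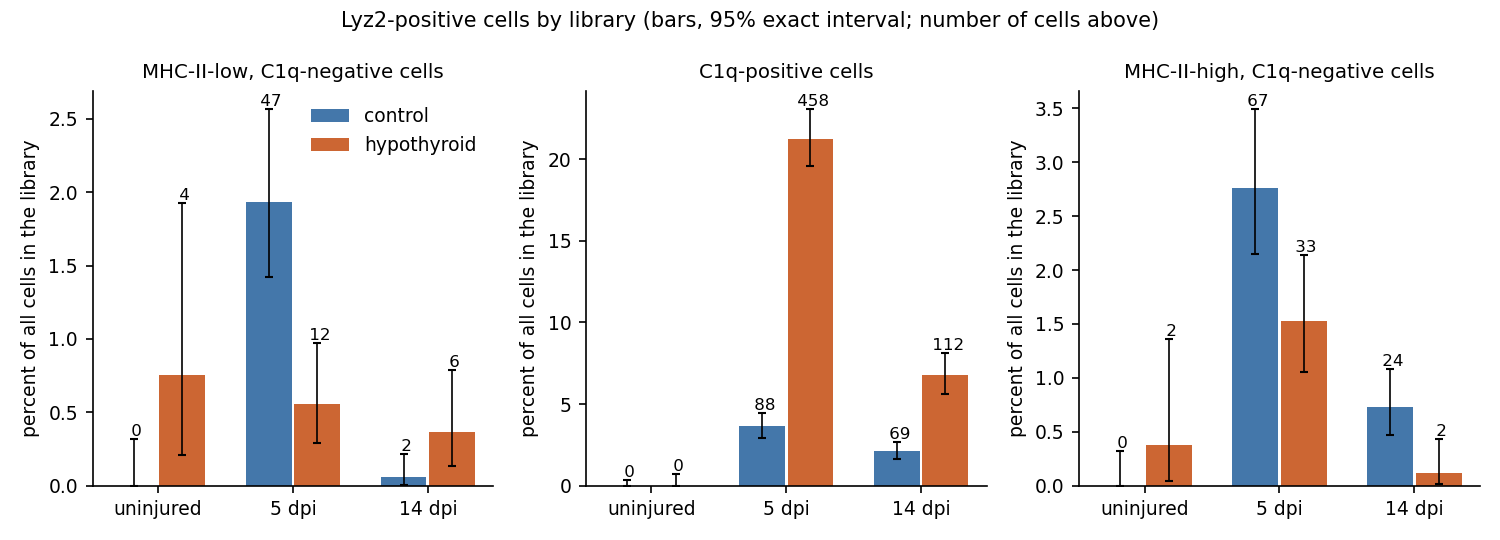
Share of all cells of a library (y axis, percent) in 3 gates of *Lyz2*-positive cells, by time (x axis) and diet (blue, control; orange, hypothyroid), with exact 95% binomial intervals and the number of cells above each bar. The C1q-negative MHC-II-low cells peaked at 1.94% in control muscle at 5 dpi, where C1q-positive cells numbered 88 against 458 in hypothyroid muscle.

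The mRNA of the 71 cells was led by genes of iron storage, the cytoskeleton and oxidative stress, with *Thbs1* and *Cxcl2* among the first 10. Ribosomal and mitochondrial genes aside, *Fth1*, the ferritin heavy chain, ranked first, with a mean over the 5 libraries of 29788 CPM (the gene's summed UMIs scaled to a common total per pool, with no correction for length, since each 3′ UMI is 1 molecule) and a range of 21198 to 43413. *Prdx1*, a peroxide-reducing enzyme, averaged 7802 CPM. *Thbs1*, which encodes the matrix glycoprotein thrombospondin 1, averaged 5691 CPM (2722 to 8382), and *Hmox1*, the heme-degrading enzyme, 5572 CPM (2812 to 7342). The neutrophil-attracting chemokine gene *Cxcl2* ranked 10 at 5165 CPM, with a range that began at 0 in the uninjured hypothyroid cells. *Slpi*, a secreted inhibitor of leukocyte proteases, averaged 2988 CPM (265.3 to 8524).

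Monocyte genes differed in order between libraries. The level of *Ly6c2* in summed UMIs was 774 CPM in the 4 uninjured hypothyroid cells, 507 (425 to 599) in control and 88.4 (28.7 to 206) in hypothyroid cells at 5 dpi, and 151 and 148 in control and hypothyroid cells at 14 dpi. It was detected in 28 of 47 and in 3 of 12 cells at 5 dpi, against 4.11% and 0.969% of *Pdgfra*-positive cells. *Chil3*, which encodes a chitinase-like protein of monocytes, followed the same order at 5 dpi, at 525 CPM in the control pool and 124 CPM in the hypothyroid pool, with 1083 CPM in uninjured hypothyroid cells. *Ccr2* did not: it stood at 212 CPM (161 to 275) in 22 of 47 control cells and at 407 (258 to 610) in 6 of 12 hypothyroid cells at 5 dpi.

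*Il1b*, which encodes the cytokine IL-1β, was held by a minority of the cells. It was detected in 32 of the 71 cells, and the median cell had 0 UMIs. At 5 dpi it was found in 23 of 47 control cells (48.9%, against 4.43% of *Pdgfra*-positive cells) and in 4 of 12 hypothyroid cells (33.3%, against 6.30%). After thinning to 1000 UMIs these were 16 of 47 and 3 of 10. In summed UMIs the level was 1028 CPM (910 to 1157) in control and 4828 CPM (4272 to 5436) in hypothyroid cells at 5 dpi, 1109 and 2788 CPM at 14 dpi, and 420 CPM in uninjured hypothyroid cells. These levels rested on single cells: 1 cell gave 65.6% of the hypothyroid UMIs at 5 dpi and 1 cell all 169 UMIs at 14 dpi, while the largest share of any control cell at 5 dpi was 23.2%. The shares of cells with *Il1b* at 5 dpi had overlapping intervals, while the summed levels did not overlap.

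Chemokine mRNA stood higher in the cells rich in *Il1b* than in the others, but was not limited to them. Cells with 10 or more *Il1b* UMIs, a limit set after the values were seen, numbered 13: 7 control and 3 hypothyroid at 5 dpi and 1 each in the other 3 libraries with cells. Of these 13, 12 held *Cxcl2*, 10 held *Cxcl3* and 8 held *Cxcl10*, against 51, 34 and 25 of all 71 cells. By the same limit of 10 UMIs, 32 of the 71 cells were rich in *Cxcl2* and 26 in *Cxcl3*. Most of those were therefore not rich in *Il1b*. In summed UMIs *Cxcl2* stood at 12951 CPM in them and 2737 CPM in the other 58 cells, *Cxcl3* at 8913 and 1449 CPM, and *Cxcl10*, an interferon-induced chemokine gene, at 5274 and 681 CPM. *Clec4n*, the receptor Dectin-2, stood at 1805 and 394 CPM, *Slpi* at 7549 and 1777 CPM, and *Il1rn*, whose product blocks the IL-1 receptor, at 1933 and 405 CPM. *Ly6c2* did not follow, at 313 and 436 CPM. Median depth was 5783 UMIs in the 13 cells and 4370 in the others, and 1 of the 13 carried genes of another type against 18 of the 58. For *Cxcl3* the gap was found in both libraries at 5 dpi. It stood at 5942 and 1945 CPM among control cells and at 20815 and 2028 CPM among hypothyroid cells. Only 3 of these hypothyroid cells were rich in *Il1b*, and 1 cell gave 56.6% of that library's *Cxcl3* UMIs.

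Because *Cxcl2*, *Cxcl3* and *Cxcl10* were rich in the same cells, their promoters are shown, from 250 bases before to 50 bases after the start of the RefSeq gene (GRCm38.p6), with matches to the NF-κB consensus, searched on both strands, in capitals. The *Cxcl2* window lies at chr5:90903649-90903948 on the plus strand, the *Cxcl3* window at chr5:90785851-90786150 on the plus strand, and the *Cxcl10* window at chr5:92348840-92349139 on the minus strand. The match begins 97 bases before the start of *Cxcl2* and 73 bases before that of *Cxcl3*, with the same letters, and *Cxcl10* has matches 159 and 104 bases before its start. Each sequence is written 5′ to 3′ on the strand of its gene.
Cxcl2: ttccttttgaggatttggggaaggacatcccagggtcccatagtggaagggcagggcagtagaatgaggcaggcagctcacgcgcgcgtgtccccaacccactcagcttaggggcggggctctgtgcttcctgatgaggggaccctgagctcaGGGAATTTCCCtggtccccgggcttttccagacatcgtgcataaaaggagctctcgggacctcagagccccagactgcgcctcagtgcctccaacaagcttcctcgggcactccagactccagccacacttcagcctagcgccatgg
Cxcl3: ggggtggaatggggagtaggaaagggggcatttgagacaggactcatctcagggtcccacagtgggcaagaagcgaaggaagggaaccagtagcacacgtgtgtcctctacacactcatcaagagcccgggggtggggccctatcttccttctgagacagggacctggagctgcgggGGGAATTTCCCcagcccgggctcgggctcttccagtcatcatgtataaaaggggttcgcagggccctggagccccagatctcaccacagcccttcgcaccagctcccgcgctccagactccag
Cxcl10: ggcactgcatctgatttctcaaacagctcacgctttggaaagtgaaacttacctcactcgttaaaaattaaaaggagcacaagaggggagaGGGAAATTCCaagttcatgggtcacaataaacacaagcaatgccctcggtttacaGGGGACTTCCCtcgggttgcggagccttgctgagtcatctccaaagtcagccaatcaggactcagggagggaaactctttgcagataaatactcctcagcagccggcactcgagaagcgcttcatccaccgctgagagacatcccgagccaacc
Of 27025 such windows 8.18% held the motif. It was found in 3 of the 6 windows matched for the chemokine list (not in *Ccl3*, *Ccl8* or *Ccl12*). For the list of inflammatory cytokines and brakes 2 of the 11 windows held it, those of *Il6* and of the caspase gene *Casp4*. The *Il1b* window held none. A match is a description of these letters and not of a bound site.

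**Figure D3:**
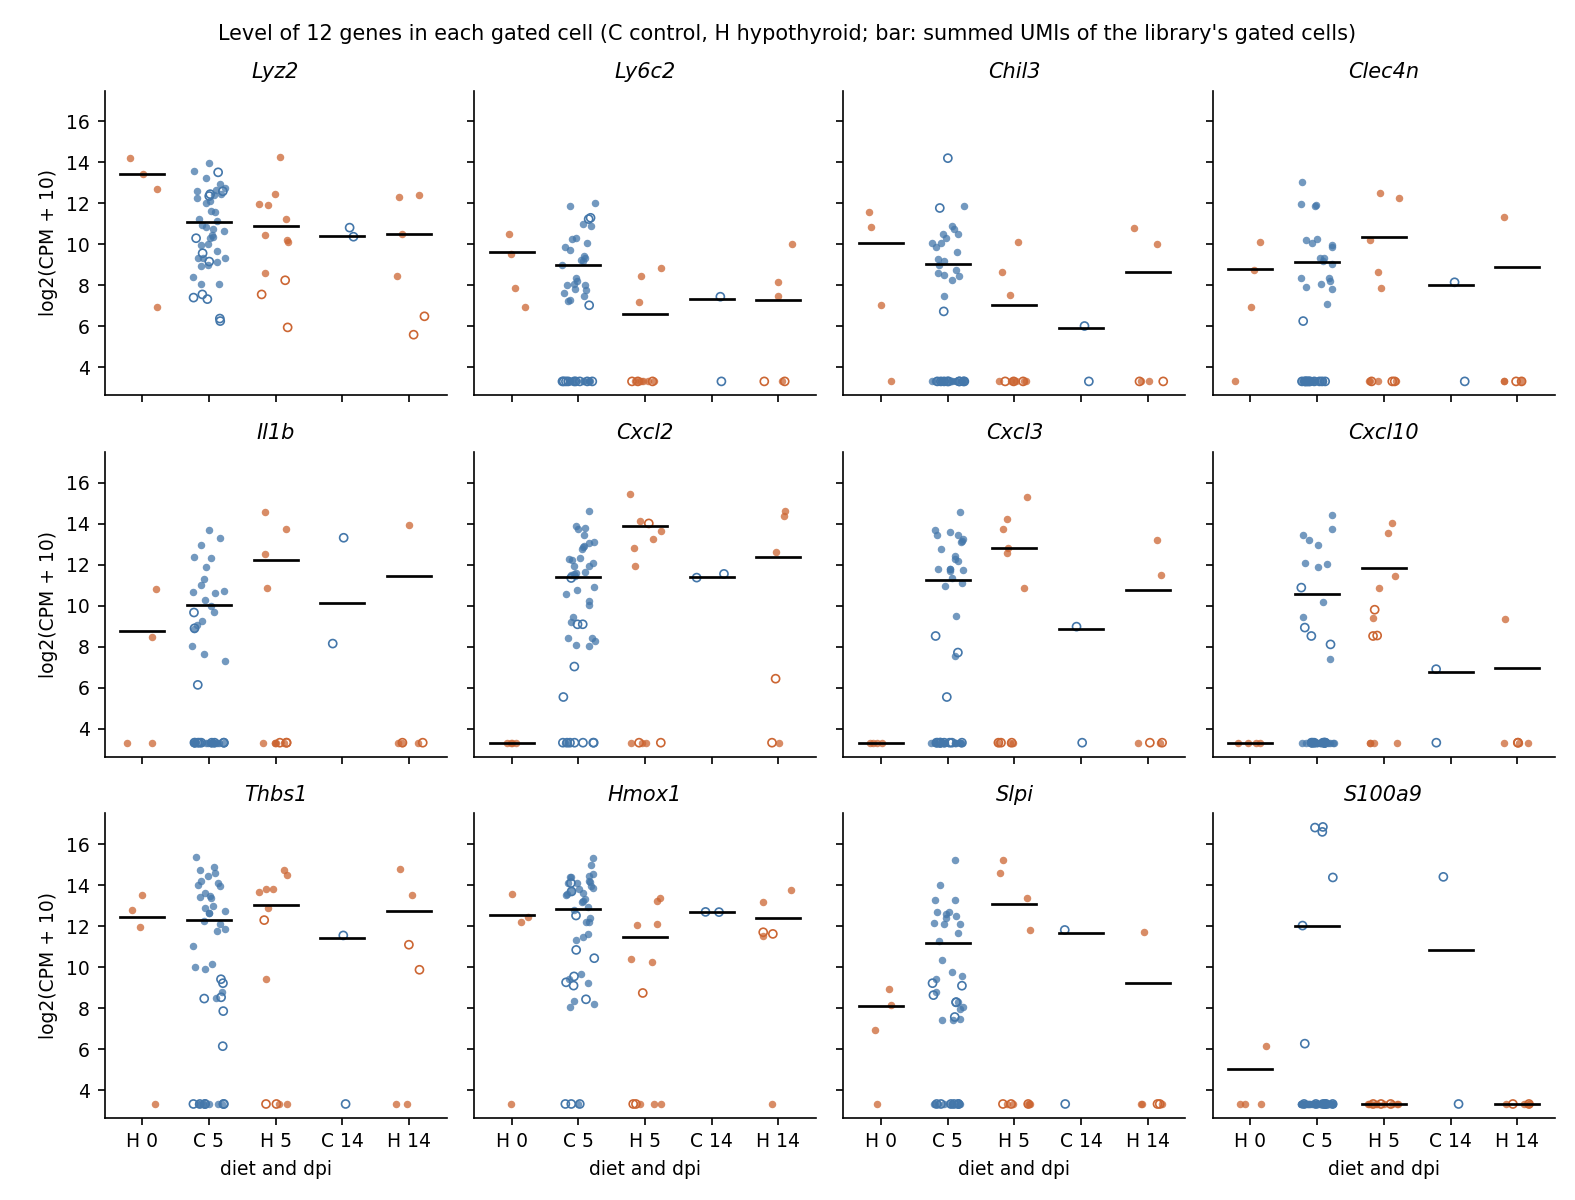
Level of 12 genes in each C1q-negative MHC-II-low cell (y axis, log2(CPM + 10)) by diet and day (x axis; H 0 hypothyroid uninjured, C 5 and H 5 at 5 dpi, C 14 and H 14 at 14 dpi). Open circles are cells with at least 3 genes of neutrophils or of another type but myocytes, and black bars are summed UMIs of the library's cells. *Il1b*, *Cxcl2* and *Cxcl3* split the cells into those with many UMIs and those at 0, and the S100a9-rich cells are open circles of control muscle.

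Compared with C1q-positive macrophages of the same libraries, the C1q-negative MHC-II-low cells had more mRNA of 5 classical monocyte genes, *Il1b*, *Cxcl3* and *Slpi*, and less of most lysosomal and lipid-handling genes tested. Only the 2 libraries at 5 dpi held 10 or more cells of both kinds (59 and 546 cells in all), and both populations were cut from one gate by values of the same cells, so the adjusted p-values below describe how alike the 2 libraries were and are no independent test. With limma on log2(CPM + 10) of summed UMIs, the library as block and Benjamini-Hochberg adjustment, 105 of 5350 genes were higher (1.96%) and 90 lower (1.68%). The 14 genes of the rule were left out. Of the 59 cells, 15 carried neutrophil genes or genes of another type but myocytes and held 45.4% of the UMIs. They gave over 50% of the UMIs of 55 of the 105 higher genes and of 19 of the 90 lower genes. Leaving cells with neutrophil or other-type genes out of both populations gave 206 higher and 224 lower of 4769 genes. That fit held 44 and 507 cells, with 9 of the 44 from hypothyroid muscle, below the minimum of 10. Its variances were pooled wholly over genes (prior degrees of freedom infinite, against 7.05 in the main fit). The counts therefore cannot be set beside the 105 and 90.

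*Slpi* led the higher genes, at 2280 CPM in the C1q-negative MHC-II-low cells and 50.5 CPM in C1q-positive macrophages of control muscle, and at 8524 and 135 CPM in hypothyroid muscle (log2 difference 5.56, SE 0.27, limma adjusted p = 9.09e-05). *Cxcl3* stood at 2443 against 83.6 CPM in the control library and 7215 against 644 CPM in the hypothyroid library (4.09, SE 0.30, limma adjusted p = 4.51e-04). *Il1b* stood at 1028 against 175 and 4828 against 434 CPM (2.97, SE 0.28, limma adjusted p = 0.00139), and *Thbs1* at 4969 against 803 and 8382 against 881 CPM (2.93, SE 0.19, limma adjusted p = 2.80e-04). All 4 were higher in both libraries, and over both libraries together cells of other types gave under 7% of their UMIs. In hypothyroid muscle alone, 378 of the 474 *Thbs1* UMIs came from cells without genes of other types. The hypothyroid levels rested on few cells. For each gene the top 3 of the 12 cells gave 98.1% (*Slpi*), 83.6% (*Cxcl3*), 99.6% (*Il1b*) and 63.7% (*Thbs1*) of the UMIs. The SEs come from 2 libraries and hold no spread between cells. *Hmox1* was higher by 1.69 (SE 0.19), and *Gclc*, which encodes the catalytic subunit of the first enzyme of glutathione synthesis, by 3.69 (SE 0.42). *Cxcl2* was not called: it stood at 2682 against 2262 CPM in the control library and 15226 against 3113 CPM in the hypothyroid library (1.27, SE 0.38, limma adjusted p = 0.127).

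By list, 5 of the 10 classical monocyte genes were higher (*Vcan*, *Chil3*, *Plac8*, *Ccr2* and *Ly6c2*) and 0 lower, with a median log2 difference of 2.19 against 0.15 over all genes tested. Cells with genes of other types gave 55% of the *Ccr2* UMIs, 47.3% of those of *Chil3*, 27% of *Ly6c2*, 23.0% of *Plac8* and 3.74% of *Vcan*. *Ly6c2* stood at 507 against 48.9 CPM in the control library and 88.4 against 10.2 CPM in the hypothyroid library. Of 12 inflammatory genes tested 4 were higher, *Il1b*, *Il6*, *Ptgs2* and *Osm*, but 75% of the *Il6* UMIs came from cells with genes of another type. Of 12 chemokine genes *Cxcl3* and *Cxcl10* were higher, and *Ccl4* and *Cxcl16* lower, with a list median of -0.52. Among 13 pattern receptors *Clec4n* and *Clec7a*, the receptors Dectin-2 and Dectin-1 for fungal cell walls, were higher. *Gzma* and *Nkg7*, genes of cytotoxic granules, were also higher, with 98.6% and 73.5% of their UMIs from cells of other types.

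The lower genes included most of the lysosomal and lipid-handling lists. Of 11 lysosomal genes 10 were lower (median log2 difference -2.07), among them *Ctsb* at 1810.3 against 10409 CPM in the control library and 1061 against 7357 CPM in the hypothyroid library. Of 12 genes of repair and lipid handling 9 were lower (median -2.60). *Spp1*, which encodes osteopontin, stood at 1039 against 17140 and 212 against 7192 CPM. *Trem2*, a lipid-sensing receptor, stood at 33.5 against 1243 and 17.7 against 1488 CPM. *Apoe*, an apolipoprotein, stood at 544 against 13119 and 4350 against 22322 CPM. *Folr2* and *Fcrls* had 0 UMIs in the C1q-negative MHC-II-low cells of both libraries.

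Against C1q-negative cells rich in MHC class II, the third population cut from the gate, fewer genes were called. This pair was also split by values of the same cells. Over 59 and 100 cells at 5 dpi, limma called 4 of 5192 genes higher (0.077%) and 1 lower (0.0193%), while 456 had an unadjusted p under 0.05. The lower gene was *Cd74*, the invariant chain that travels with MHC class II, at 171 against 9026 CPM in the control library and 35.4 against 14192 CPM in the hypothyroid library, close to what the rule itself fixed. *Thbs1* was higher, at 4969 against 1102 and 8382 against 2333 CPM (log2 difference 2.0, SE 0.19, limma adjusted p = 0.0149). The other 3 were *Mgp*, *Igfbp7* and *Col4a1*, a calcification inhibitor, a growth factor binding protein and a basement membrane collagen, with 98.8% to 100% of their UMIs from cells with genes of other types. *Il1b* stood at 1028 against 2931 CPM in the control library and 4828 against 3720 CPM in the hypothyroid library, so its order was not the same in the 2 libraries. *Hmox1*, at 7342 against 5491 and 2812 against 3172 CPM, and *Ly6c2*, at 507 against 248 and 88.4 against 169 CPM, also changed order.

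**Figure D4:**
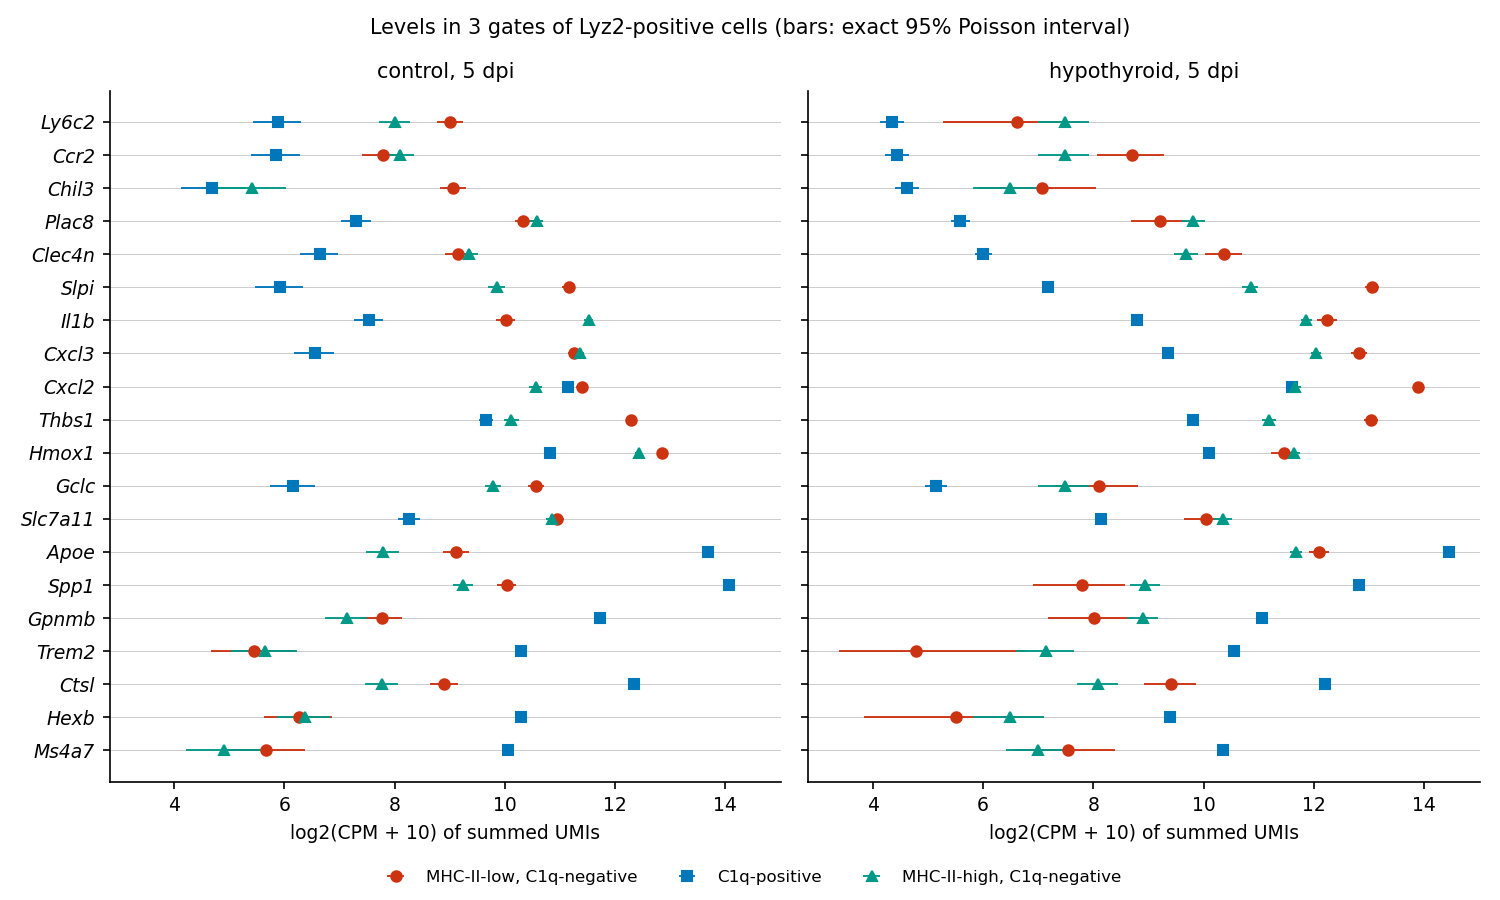
Levels of 20 genes (y axis) in 3 gates of *Lyz2*-positive cells in the control (left) and the hypothyroid (right) library at 5 dpi, as log2(CPM + 10) of summed UMIs (x axis) with exact 95% Poisson intervals. C1q-negative MHC-II-low cells (circles) differ from C1q-positive cells (squares) in both directions, with *Trem2* at 33.5 against 1243 CPM and *Slpi* at 2280 against 50.5 CPM in control muscle.

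Between diets at 5 dpi, the summed UMIs of the C1q-negative MHC-II-low cells were compared over 47 control cells (268469 UMIs) and 12 hypothyroid cells (56547 UMIs), 1 library each. A gene was taken as apart when it differed at least 2-fold, its interval left out 1, and the higher pool had 50 UMIs in at least 10 cells. Of 661 genes 16 were higher (2.42%) and 195 lower (29.5%) in hypothyroid cells. The rule makes that split lopsided, since a gene higher in hypothyroid cells had to be found in 10 of 12 cells and a gene higher in control cells in 10 of 47. Over the 1067 genes with 50 UMIs in both pools together, the median ratio was 0.782.

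Most of the 16 higher genes were also higher in the pooled *Lyz2*-negative cells. Ribosomal protein genes made up 11 of them, and 11 of the 16 were also at least 2-fold higher in the *Lyz2*-negative cells of the same libraries. *Rpl35*, which encodes a protein of the large ribosomal subunit, was 7.22-fold higher in the C1q-negative MHC-II-low cells (interval 5.33 to 9.84) and 5.56-fold higher in *Lyz2*-negative cells. *Gm10076* was 16.8-fold and 17.7-fold higher. *Zfand5* was 2.36-fold higher, but 1 cell gave 81.6% of its hypothyroid UMIs, and without cells of other types it stood at 0.609. Without those cells 9 hypothyroid cells were left, too few for any gene to be called higher, but 10 of the 16 genes kept a difference of at least 2-fold with an interval that left out 1.

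Some monocyte genes, *Hmox1*, *Gclc* and immediate early genes were among the 195 lower ones, of which 63 (32.3%) were also at least 2-fold lower in *Lyz2*-negative cells. A ratio below 1 in *Lyz2*-negative cells was found for 174 of the 195. When cells of other types were left out, 96 of the 195 kept a difference of at least 2-fold with an interval that left out 1. The 2 pools also differed in make-up. At least 3 classical monocyte genes, without neutrophil genes or another type but myocytes, were found in 33 of 47 control and 4 of 12 hypothyroid cells. None of these lists reached 3 genes in 2 of the 47 and 5 of the 12. The ratios of monocyte genes therefore do not compare like cells. Of the 10 classical monocyte genes 3 met the minimum of cells and UMIs, through the control pool alone, so that they could only be lower: *Ly6c2* at a ratio of 0.175 (0.0558 to 0.417), *Chil3* at 0.236 (0.0931 to 0.499) and *Plac8* at 0.454 (0.308 to 0.650). Without cells of other types *Chil3* stood at 0.519, with an interval of 0.201 to 1.13. With the later columns of each table, whose condition is unknown, these 3 ratios were 1.41, 1.22 and 1.01. Genes of the list that did not meet the minimum ran the other way, *Ccr2* at 1.92 (1.13 to 3.16) and *Ms4a4c* at 2.43 (1.37 to 4.21), or near 1, *Vcan* at 1.16 (0.683 to 1.89). In C1q-positive macrophages of control and hypothyroid muscle *Ly6c2* stood at 48.9 and 10.2 CPM and *Plac8* at 148 and 38.1. *Chil3* stood there at 15.8 and 14.5 CPM and *Ccr2* at 47.3 and 11.6. *Gclc* stood at 0.175 (0.0973 to 0.293), against 0.318 in *Lyz2*-negative cells, *Txnrd1*, a thioredoxin reductase, at 0.421 (0.278 to 0.616) against 0.682, and *Hmox1* at 0.383 (0.324 to 0.450) against 0.727. Like any gene found in fewer than 10 of the 12 hypothyroid cells, *Gclc* (5 cells), *Hmox1* (7) and *Txnrd1* (9) could only be lower. In C1q-positive macrophages of control and hypothyroid muscle *Gclc* stood at 61.5 and 25.4 CPM and *Hmox1* at 1806 and 1092. The cystine transporter gene *Slc7a11* missed the fold at 0.530, *Gclm*, the other subunit of the enzyme of *Gclc*, stood at 0.680 (0.495 to 0.917), and *Srxn1* at 0.853 (0.522 to 1.34). All 10 immediate early genes met the minimum through the control pool alone, with ratios of at most 0.724. They too could only be lower, and 6 were called, where 29.5% of all 661 genes were called lower. *Fos* stood at 0.0950 (0.0113 to 0.352) against 1.58 in *Lyz2*-negative cells, and *Jun* at 0.138 (0.0370 to 0.360) against 1.05. These control levels rested on few cells: 1 cell gave 41% of the control *Fos* UMIs and 34.1% of those of *Jun*, and over both libraries cells with genes of other types gave 53.9% of *Fos*, 55.6% of *Jun*, 72.2% of *Fosb* and 76.1% of *Btg2* UMIs. In cells chosen again after thinning to 1000 UMIs the order of *Fos* was turned, at 24.5. *Spp1* stood at 0.204 (0.104 to 0.362; 2.01 with the later columns) and *Neat1*, a nuclear noncoding RNA, at 0.227 (0.155 to 0.322). The lectin receptor genes *Clec4d* and *Clec4e* stood at 0.468 and 0.401 (1.19 and 1.05 with the later columns). Each was found in 5 of the 12 hypothyroid cells and so could only be lower. The thyroid hormone target *Klf9* stood at 0.233 (1.15 after thinning), with 67.2% of its UMIs from cells with genes of other types, and the transcription factor gene *Runx1* at 0.441. None of the 9 lysosomal genes tested was apart (median ratio 0.717). All 4 myocyte genes tested, which also met the minimum through the control pool alone, were lower, with ratios of 0 to 0.198. The same 4 had a median of 0.183 in *Lyz2*-negative cells, and with the later columns all 4 turned direction, to 2.09 to 2.79.

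*Il1b*, *Cxcl2*, *Cxcl3*, *Cxcl10*, *Slpi* and *Clec4n* ran the other way but were found in too few hypothyroid cells to pass the rule. *Cxcl2* stood at 15226 CPM in 7 of 12 hypothyroid cells and 2682 CPM in 38 of 47 control cells, a ratio of 5.68 (5.14 to 6.28), against 3.22 in *Lyz2*-negative cells. The deepest hypothyroid cell, which held 6 fibro-adipogenic genes, gave 318 of its UMIs, and without cells of other types the ratio was 4.26 (3.79 to 4.77). Of the hypothyroid *Cxcl2* UMIs then left, 1 cell gave 61.3%. *Il1b* had a ratio of 4.70 (3.96 to 5.57), against 0.440 in *Lyz2*-negative cells. *Slpi* had a ratio of 3.74 (3.31 to 4.22), against 0.261, and *Clec4n* of 2.34 (1.75 to 3.11), against 0.170. *Cxcl3* had a ratio of 2.95 and *Cxcl10* of 2.39, with 5.36 and 1.15 in *Lyz2*-negative cells. In C1q-positive macrophages of control and hypothyroid muscle *Il1b* stood at 175 and 434 CPM, *Slpi* at 50.5 and 135, and *Cxcl3* at 83.6 and 644. *Cxcl10* (410 and 959 CPM) and *Cxcl2* (2262 and 3113 CPM) also ran that way there, while *Clec4n* did not (89.9 and 54.1 CPM). A single cell gave 56.6% of the *Cxcl3* UMIs, 58.5% of the *Slpi* UMIs and 56.8% of the *Clec4n* UMIs of hypothyroid muscle, so the counting intervals understate the error of these ratios. *Ccl2*, the ligand of CCR2, stood at 7940 CPM in hypothyroid and 249.6 CPM in control cells, but 95.8% of the hypothyroid UMIs were from 1 cell, and without cells of other types the ratio was 1.47 (0.803 to 2.54).

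**Figure D5:**
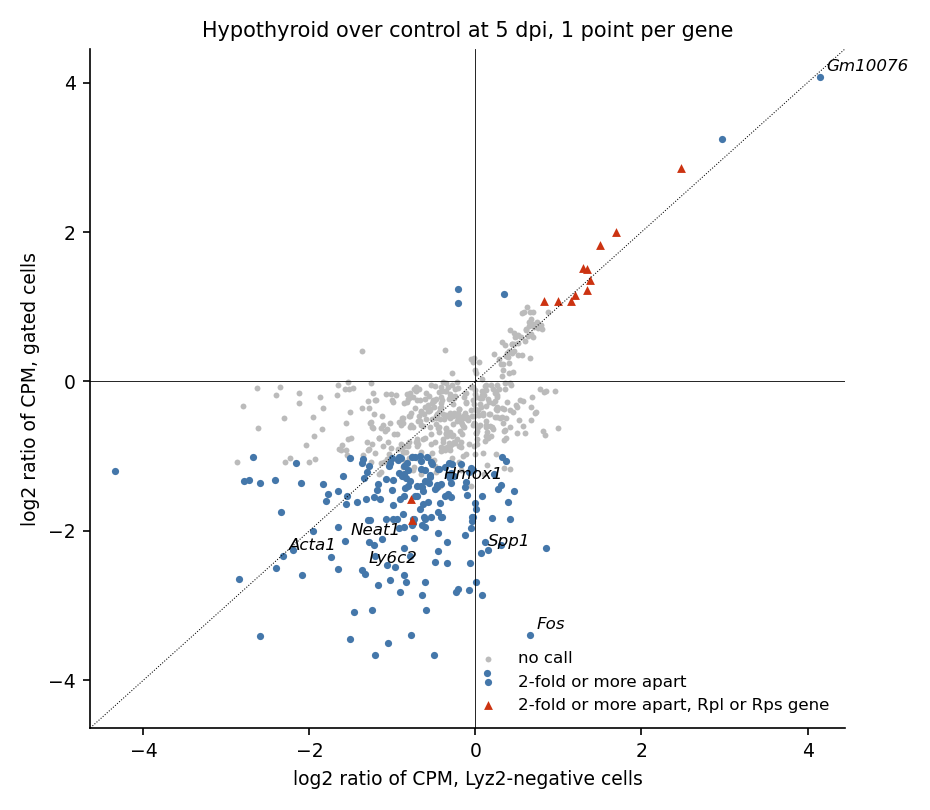
Log2 ratio of hypothyroid over control CPM at 5 dpi in the C1q-negative MHC-II-low cells (y axis) against the *Lyz2*-negative cells of the same libraries (x axis), for 657 of the 661 genes compared (the 4 others were at 0 in 1 pool). Most genes higher in hypothyroid cells, with *Gm10076* at the top, lie near the dotted line of equal ratios, whereas *Fos* and *Spp1* lie below it.

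Neutrophil mRNA was found mainly in a few control cells. *S100a9*, an alarmin of neutrophils, had 1112 UMIs in 6 of the 47 control cells at 5 dpi (4142 CPM) and 0 UMIs in the 12 hypothyroid cells, which allows up to 3 UMIs, and the list of 5 measured neutrophil genes summed to 6433 CPM in the control pool and 70.7 CPM in the hypothyroid pool. Of the control UMIs of *S100a9*, 71.9% came from 3 cells, so a limit in UMIs leaves out the spread between cells. Counted as cells, 12 are too few to tell 0 of 12 from 6 of 47, and no difference between diets is drawn. *S100a9* was detected in 1.27% and 0.646% of *Pdgfra*-positive cells of the same libraries. Without the cells with 3 neutrophil genes the share at 5 dpi was 0.330 of control (0.158 to 0.640).

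Between days, 14 dpi could only be compared downwards, since 2 and 6 cells cannot meet the rule of 10 cells. In control muscle 116 of 567 genes were lower at 14 than at 5 dpi (20.5%), over a pool in which 1 cell with vascular genes held 91.6% of the UMIs. Genes entered this comparison by their level at 5 dpi, so the tally within a list was fixed by that minimum. The lower genes included *Ly6c2*, *Chil3* and *Plac8* and the chemokine genes *Ccl2*, *Ccl4*, *Cxcl3* and *Cxcl10*. In hypothyroid muscle 9 of 65 genes were lower (13.8%), but without cells of other types only *Cd9* (0.138, 0.0358 to 0.385) and *Txn1* (0.407, 0.272 to 0.597) of these 9 kept an interval that left out 1. *Runx1* stood at 775 CPM in 6 of 6 hypothyroid cells at 14 dpi, 159 at 5 dpi and 508 when uninjured, and 1 cell gave 68.1% of its UMIs at 14 dpi. The 4 uninjured hypothyroid cells held no UMI of *Cxcl2*, *Cxcl3*, *Cxcl10* or *Ccl2*, which allows up to 66.3 CPM each, while *Thbs1* stood at 5571 and *Spp1* at 6190 CPM in them.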

How the data were processed

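Libraries were made with 10x Genomics 3′ V3 chemistry from TAM of control and hypothyroid mice. The authors aligned reads to mm39 with Cell Ranger and filtered, normalized and merged cells in Partek Flow, and deposited log2(CPM + 1) values for 12436 genes and 20269 cell columns. Since 1 UMI is worth 1 step of CPM, counts were recovered from the deposited log2 values (99.934% of 39334018 values came out whole within 0.05 UMI or 0.2%). Each table holds up to 3 runs of barcodes, and only the first run was used (11207 cells). The 9062 later columns, of which 1680 copied first-run cells, carry no stated condition. For every sample the authors report more cells than its first run holds. Across first runs 12 barcodes recurred, 0 with the same values. No doublet caller was applied.

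The cells and gene lists (300 genes, 15 not listed in the tables) were chosen with earlier results of these data known. Genes named are members of these lists, per comparison the 10 called genes each way with the largest log2 difference (limma) or the interval end furthest from no difference, the 20 genes of highest CPM, and genes chosen after their values were seen (*Slpi*, *Slc7a11*, *Txnrd1*, *Srxn1* and the 4 defining monocyte genes). Shares have exact Clopper-Pearson and levels exact Poisson intervals at 95%, and ratios the exact binomial interval, all for counting error only, and a count of 0 allows up to 3. Populations were compared with limma 3.58.1 (R 4.3.3) on log2(CPM + 10) of genes with a mean of at least 20 CPM, at an adjusted p of 0.05. Because the deposited unit is log2, no count model was run. Code was tested on simulated data with 200 changed genes. Alternatives were the pseudocount, filters, weighting of cells, thinning to 1000 or 2000 UMIs, other columns and removal of cells of other types. Promoters are from RefSeq (GRCm38.p6), which is not the build of the tables, and were matched by symbol. Some genes are not reported here.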

Additional observations from a re-analysis of the deposited data

Results flagged for a closer look

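Cells that met the same rule also occurred in columns that no comparison used. After copies of first-run cells were left out, the later runs of columns held 42 such cells, 32 of them with at least 3 classical monocyte genes. The third run of the hypothyroid 5 dpi table held 27 in 1626 cells (1.66%, exact 95% interval 1.10 to 2.41), 23 of them with at least 3 such genes. The second run of the control 5 dpi table held 10 in 2427 cells (0.412%, 0.198 to 0.756), 5 of them with at least 3. They are given because they are a signal in data outside the comparisons, above what a count of 0 allows, and the condition of those columns is not given in the sources used here.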

How the results depend on the processing

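Each diet and day was 1 library of 3 pooled mice, so no spread between mice was measured, and 12, 2, 6 and 4 cells limit all but the control cells at 5 dpi. Diets and days could not be paired, with 1 library in each group. Populations of the same library were compared with the library as block. Leaving out 1 library, keeping cells of 2000 UMIs or more, or leaving out other types with myocytes left limma 1 library, and could not be fitted. The share ratio at 5 dpi was 0.830 with all columns of each table and 0.103 of the myeloid gate, and 0.225 to 0.461 under the 8 other settings. At 14 dpi it was 1.41 to 12, and thinning to 2000 UMIs or leaving out other types gave no value. The cause of these and the following differences was not tested.

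Genes higher and lower in hypothyroid cells at 5 dpi numbered 27 and 39 with all columns (3 and 24 shared with the first-run calls), 0 and 8 after thinning to 1000 UMIs, 0 and 42 without other types and myocytes, 0 and 86 without other types, and 10 and 83 with a minimum of 100 UMIs, and 347 were lower with a minimum of 20 UMIs. Each 0 was fixed by the rule, since 5 or 9 hypothyroid cells cannot give the 10 cells a call needs. Between days, control muscle had 363 lower genes by mean CPM per cell and 13 after thinning, and hypothyroid muscle 143 with all columns and 3 with 100 UMIs. Against C1q-positive macrophages limma called 298 higher and 245 lower genes with no filter, 182 and 156 with 50 CPM, 206 and 224 without other types, and 41 and 69 with 4 libraries, of which 84 in all were shared with the 195 calls of the 2 libraries (43.1% of these and 76.4% of the calls with 4). Against cells rich in MHC class II it called 9 and 10 with a pseudocount of 1 CPM, 106 and 71 with no filter, 17 and 19 by mean CPM per cell, 0 and 3 with 5 libraries, and 40 and 63 without other types. In both comparisons the fits with no filter and without other types pooled the variances wholly over genes, so their counts cannot be set beside the main ones.

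The direction of single ratios at 5 dpi was turned with all columns for *Lars2* (1.38), *Mylpf* (2.09), *Pvalb* (2.53), *Acta1* (2.73), *Chil3* (1.22), *Clec4d* (1.19), *Clec4e* (1.05), *Ly6c2* (1.41), *Pkm* (1.15), *Plac8* (1.01), *Spp1* (2.01) and *Tnnc2* (2.79). It was turned after thinning for *Fos* (24.5), *Atf3* (1.53), *Fosb* (6.9), *Klf9* (1.15), *Pcna* (2.3) and *Plin2* (2.15), and without other types and myocytes for *Zfand5* (0.771) and *Tnnc2* (1.26), with *Zfand5* at 0.609 where myocytes were kept. Of 39 genes followed, 0 kept their call under every setting.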
